A study of Drosophila melanogaster with 13 samples.

Results

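The genes described here encode neuropeptides and peptide hormones of Drosophila melanogaster, measured in RNA of adult heads. A list of 33 such genes was matched by symbol to the annotation of the Affymetrix expression array, and 27 of them had a probe set named for that gene alone, 1 probe set each, among 11981 genes so named. On this array each transcript is read by a set of short oligonucleotides, called a probe set. AstA, Dsk, Hug, Ilp3, Ilp6 and Tk were not analysed here. The measured members lay on chromosome arms 2L (6 genes), 2R (5), 3L (7) and 3R (9).

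Flies of 4 genotypes were compared, each on 3 arrays that the series' design text calls biological replicates. The double mutant was yw; egg235/CyO; Su(var)3-906. The egg mutant was yw; egg235/CyO, and the Su(var)3-9 mutant was the yw; +/CyO stock with Su(var)3-906. The control was yw; +/CyO, so every group carried the balancer chromosome CyO, and flies with the egg allele kept a copy of that balancer. The written genotype does not state whether Su(var)3-906 was homozygous, and the labels give neither the age nor the sex of the flies. The products of both genes, relatives of SETDB1 (egg) and of the SUV39H enzymes (Su(var)3-9), methylate lysine 9 of histone H3, as is typical of heterochromatin. Neither mutated gene was analysed here, which leaves the labels unchecked by their own transcripts. Levels are given on the deposited log2 scale, on which a difference of 1 is a 2-fold difference.

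Neuropeptides are cut from longer precursors in the secretory pathway, packed into dense-core vesicles and released to act mostly on G protein-coupled receptors. In the fly head many are made by few, highly active neurosecretory cells, for example the median neurosecretory cells of the brain that release the insulin-like peptides. Several of the same genes are also used by endocrine cells of the midgut, and adipokinetic hormone is made in the corpora cardiaca, a gland by the foregut. In whole heads, fewer cells of a type and less RNA per cell cannot be told apart.

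The control arrays stood apart from all mutant arrays in genes of gut, testis and muscle. The median log2 level of 20 gut enzyme genes was 5.43 to 6.81 in double mutants, 7.54 to 8.24 in egg mutants and 5.08 to 7.75 in Su(var)3-9 mutants, against 10.91 to 11.45 in controls. For 21 testis genes the double mutant, egg mutant and Su(var)3-9 mutant reached at most 5.18, 5.80 and 4.95, while the lowest control array stood at 8.19. The 17 neuron markers lay the other way, at 10.91 to 11.08 in double mutants, 11.17 to 11.27 in egg mutants and 10.87 to 10.99 in Su(var)3-9 mutants, against 10.17 to 10.60 in controls. The median of 12 photoreceptor genes, which mark the eye, was 12.91 to 13.02 in egg mutants, above all other arrays. It was 12.61 to 12.70 in double mutants, 12.42 to 12.56 in Su(var)3-9 mutants and 12.08 to 12.43 in controls. Within the mutants, Su(var)3-9 replicate 3 and double mutant replicate 2 had the highest gut medians of their groups. The part of these differences in the results below was not tested, and comparisons between mutants are therefore given beside those with the control.

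**Figure D1:**
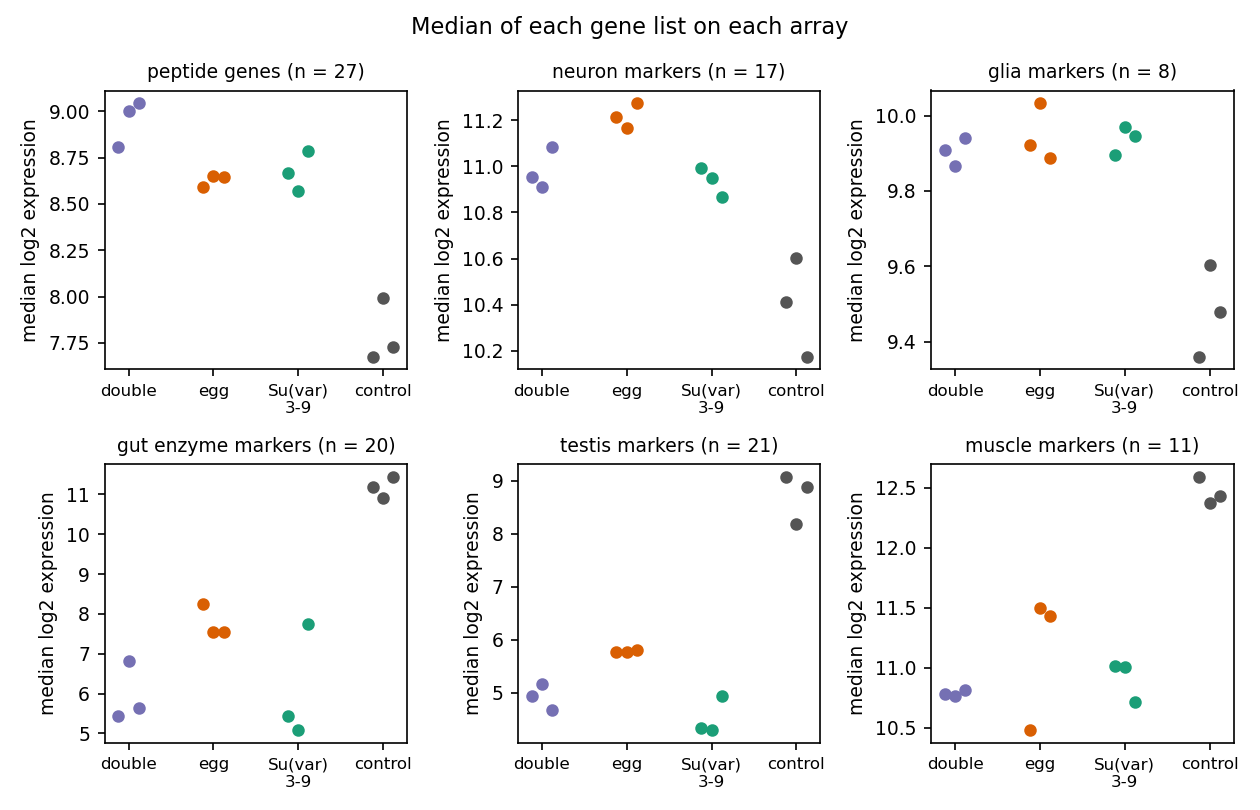
Median log2 expression of each gene list (y axis) on each array, with 1 point per array and the 4 genotypes along the x axis. The peptide gene and neuron marker medians were lowest on the 3 control arrays, where the gut, testis and muscle medians were highest.

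Most of the peptide genes were higher in each mutant than in controls. In egg mutant heads 19 of the 27 members rose (70.4% of them, where 36.4% of all named genes did) and 3 fell (where 26% of all named genes did), at an adjusted p under 0.05 in limma's moderated test. In Su(var)3-9 mutant heads 18 rose and 1 fell, where 43.3% of all genes rose and 23.8% fell. In double mutant heads 19 rose and 1 fell, where 42.2% and 23.8% of all genes did so. The median log2 change of the members was 0.64 in egg mutants, 0.53 in Su(var)3-9 mutants and 0.57 in double mutants, beside 0.09, 0.18 and 0.17 for all named genes. Rises of at least 2-fold were seen for 5 members in egg mutants, 2 in Su(var)3-9 mutants and 4 in double mutants, where 2.45%, 2.74% and 2.56% of all genes had them. All arrays of egg mutants lay above all control arrays for 19 members and below them for 3, where 40.7% and 28.2% of all genes did so. For Su(var)3-9 mutants these counts were 21 and 1 (45.6% and 24.8% of all genes), and for double mutants 20 and 1 (45.7% and 24.9% of all genes). The comparisons share the control arrays and are not independent of each other. The 17 neuron markers all rose in each of them as well, by medians of 0.83, 0.59 and 0.66, and so did 7, 6 and 6 of 8 glia markers. Of 12 photoreceptor markers 12, 6 and 10 rose. With arrays normalised again by cyclic loess the median change of the members was smaller, 0.36 in egg mutants, 0.27 in Su(var)3-9 mutants and 0.29 in double mutants. That setting ended the calls of CCHa2, FMRFa, Ilp5 and SIFa in egg mutants, of CCHa1, Dh31, Dh44 and Nplp1 in Su(var)3-9 mutants, and of Capa, Crz, Dh44 and Proc in double mutants.

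**Figure D2:**
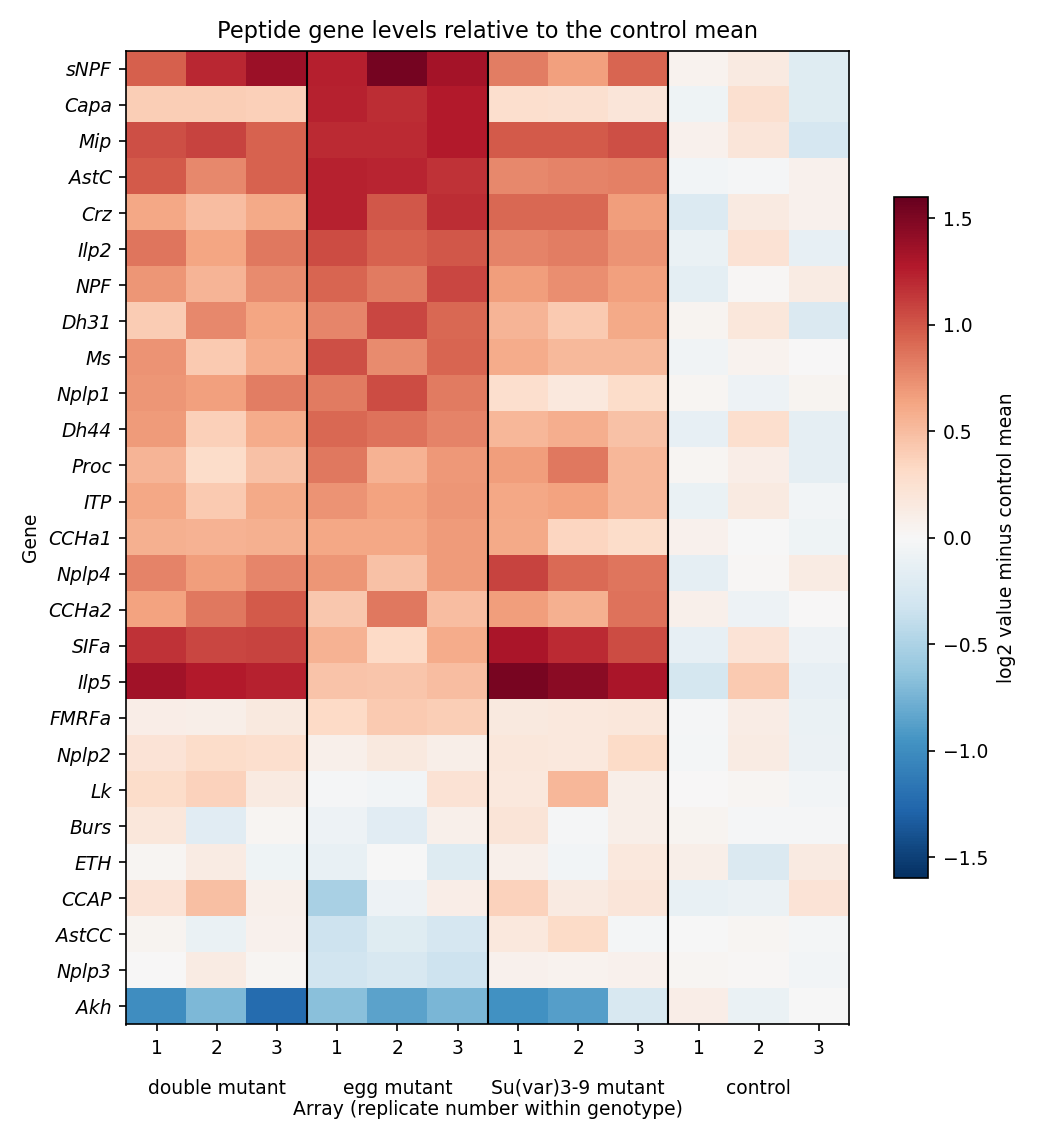
Log2 level of each measured peptide gene minus its control mean (colour, from blue for lower to red for higher), with genes down the y axis ordered by their change in egg mutants and the 12 arrays along the x axis, grouped by genotype. Ilp5 and SIFa were redder in the double and Su(var)3-9 mutants than in egg mutants, Capa was reddest in egg mutants, and Akh was blue in all mutants.

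Among the 17 measured members that act mainly as brain transmitters or modulators, 14 rose and 1 fell in egg mutants, 12 rose in Su(var)3-9 mutants and 13 in double mutants, with none lower in either. Of all genes 36.4%, 43.3% and 42.2% rose and 26%, 23.8% and 23.8% fell in these 3 comparisons. The largest rise in egg mutants was that of sNPF, the precursor of short neuropeptide F, which modulates feeding and olfaction. Its log2 level was 8.81, 9.06 and 9.22 in double mutants, 9.09, 9.38 and 9.18 in egg mutants and 8.66, 8.51 and 8.79 in Su(var)3-9 mutants, against 7.91, 7.99 and 7.65 in controls. Every mutant array lay above every control array. The changes against the control were 1.37 ± 0.13 in egg mutants (SE, n = 3 arrays per group here and throughout, adjusted p = 2.05e-06), 0.80 ± 0.13 in Su(var)3-9 mutants and 1.18 ± 0.13 in double mutants.

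Mip encodes the myoinhibiting peptides, which also activate the sex peptide receptor. It stood at 9.53, 9.58 and 9.45 in double mutants, 9.69, 9.70 and 9.77 in egg mutants and 9.48, 9.48 and 9.54 in Su(var)3-9 mutants, against 8.57, 8.70 and 8.23 in controls. Mip thus had no overlap with the control in any mutant, with rises of 1.22 ± 0.10 in egg mutants (adjusted p = 1.01e-06), 1.0 ± 0.10 in Su(var)3-9 mutants and 1.02 ± 0.10 in double mutants.

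AstC, the allatostatin C gene of brain and gut, read 10.97, 10.76 and 10.93 in double mutants, 11.22, 11.20 and 11.15 in egg mutants and 10.75, 10.78 and 10.79 in Su(var)3-9 mutants, against 9.94, 9.97 and 10.06 in controls. The egg mutant arrays were the highest and the control arrays the lowest, and none of the egg or control arrays overlapped another genotype. AstC rose by 1.20 ± 0.07 in egg mutants (adjusted p = 1.40e-07), 0.79 ± 0.07 in Su(var)3-9 mutants and 0.90 ± 0.07 in double mutants.

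Crz encodes corazonin, a stress-related peptide that is kin to adipokinetic hormone. Its levels were 8.28, 8.15 and 8.26 in double mutants, 8.89, 8.65 and 8.84 in egg mutants and 8.57, 8.57 and 8.32 in Su(var)3-9 mutants, against 7.44, 7.80 and 7.73 in controls. In the order of the group means, egg mutant, Su(var)3-9 mutant, double mutant and control, neighbouring groups did not overlap on any array. Crz rose by 1.14 ± 0.11 in egg mutants (adjusted p = 2.80e-06), 0.83 ± 0.11 in Su(var)3-9 mutants and 0.57 ± 0.11 in double mutants.

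Capa, whose peptides act on the renal tubules, followed the genotypes differently. Its arrays read 8.11, 8.11 and 8.09 in double mutants, 8.95, 8.89 and 8.99 in egg mutants and 7.98, 7.97 and 7.91 in Su(var)3-9 mutants, against 7.65, 7.97 and 7.51 in controls. The egg mutant stood apart from all other groups, and control replicate 2 reached the Su(var)3-9 range. The rise was 1.23 ± 0.10 in egg mutants (adjusted p = 7.35e-07) and 0.39 ± 0.10 in double mutants (adjusted p = 0.00478). The Su(var)3-9 mutant differed by 0.24 ± 0.10 and did not pass (adjusted p = 0.0510), although without control replicate 2 it did, at 0.37 (adjusted p = 0.000944). It also passed with arrays centred on their medians (0.61, adjusted p = 0.000158), where the median change of all probe sets was 0.58. Array weights (0.28, adjusted p = 0.0180) and trend and robust eBayes (adjusted p = 0.0326) gave a call as well. So did removal of dim probe sets (adjusted p = 0.0409) and the mean of each gene's probe sets (adjusted p = 0.0495).

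The changes in the egg, Su(var)3-9 and double mutants were 0.94, 0.69 and 0.67 for the brain peptide gene NPF, the fly relative of neuropeptide Y, and 0.90, 0.54 and 0.58 for the myosuppressin gene Ms. For the diuretic hormone genes they were 0.92, 0.52 and 0.60 (Dh31, a calcitonin-like peptide) and 0.86, 0.53 and 0.55 (Dh44, a relative of corticotropin-releasing factor). ITP, the ion transport peptide of water balance, changed by 0.69, 0.60 and 0.55, and Proc, the proctolin gene, by 0.69, 0.68 and 0.44. All of these passed the test, and their arrays did not overlap with the control in any mutant. FMRFa rose in egg mutants (0.38 ± 0.07, adjusted p = 0.000703), and its values of 0.17 in Su(var)3-9 mutants and 0.12 in double mutants did not pass. Without control replicate 2 FMRFa passed both in Su(var)3-9 mutants (0.23, adjusted p = 0.0121) and in double mutants (0.18, adjusted p = 0.0422). It also passed in Su(var)3-9 mutants with array weights (0.19, adjusted p = 0.0387) and without dim probe sets (adjusted p = 0.0333). With arrays centred on their medians it passed in both genotypes, at 0.54 in Su(var)3-9 mutants and 0.47 in double mutants. All probe sets had median changes of 0.58 and 0.54 on that scale. Under cyclic loess FMRFa was instead lower in double mutants (-0.22, adjusted p = 0.0174).

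Members that are also peptides of gut endocrine cells were higher in the mutants too. All 6 measured genes of this group (AstC, CCHa1, CCHa2, Dh31, Mip and NPF) rose in each mutant. Of all genes 36.4%, 43.3% and 42.2% rose in the egg, Su(var)3-9 and double mutants. Of 20 gut enzyme markers, 12 fell and 1 rose in egg mutants, 18 fell and none rose in Su(var)3-9 mutants, and 18 fell and 1 rose in double mutants. The shares of all genes that fell were 26%, 23.8% and 23.8%. Of the 6 peptide genes, CCHa1 and CCHa2, the ligands of a pair of bombesin-type receptors, rose by 0.64 ± 0.08 and 0.59 ± 0.12 in egg mutants, 0.41 and 0.70 in Su(var)3-9 mutants, and 0.57 and 0.82 in double mutants.

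**Figure D3:**
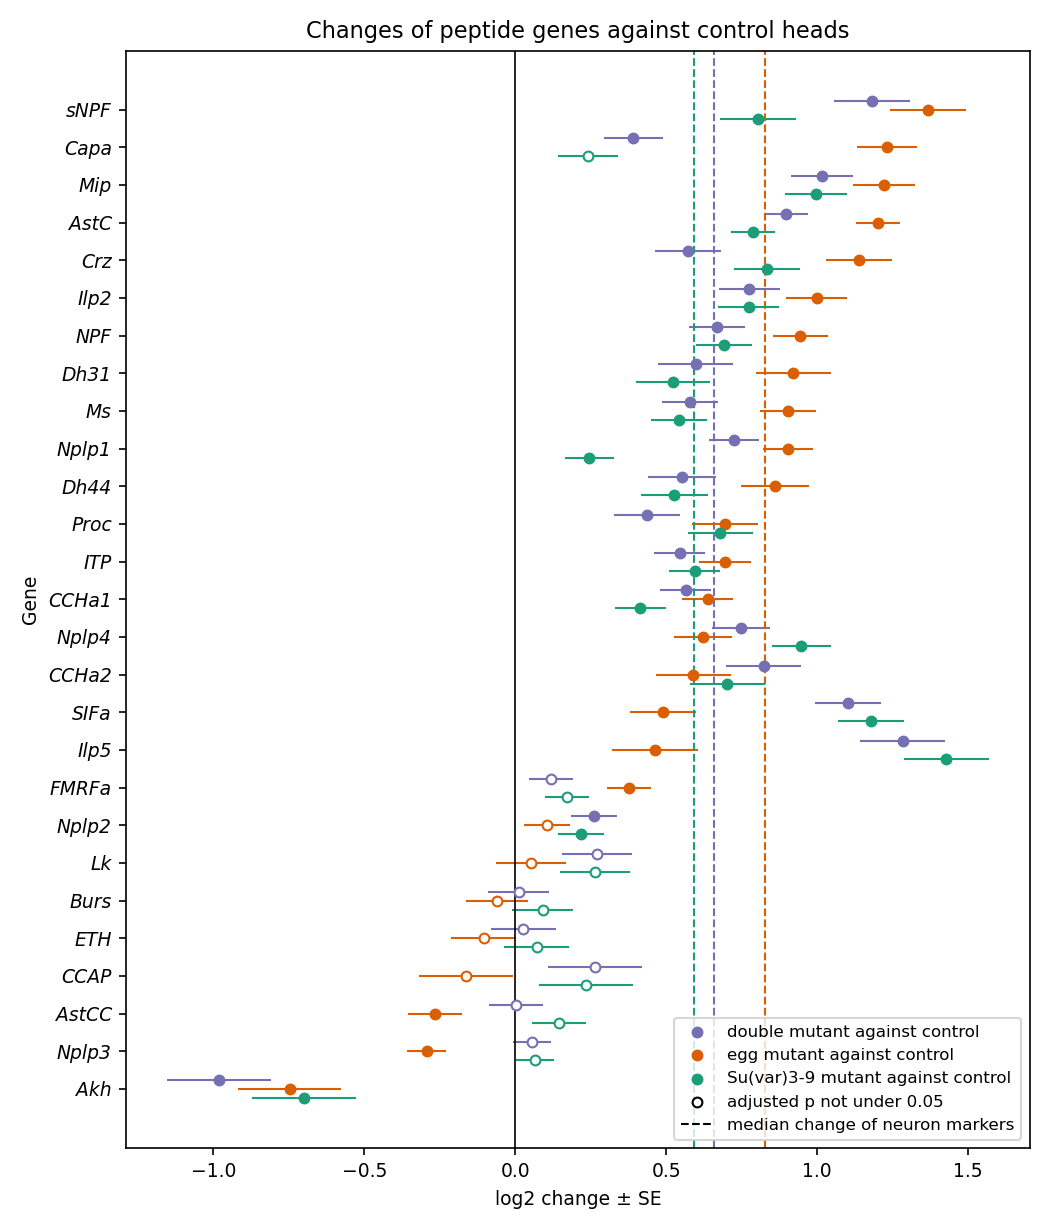
Log2 change of each measured peptide gene against the control (x axis, points ± SE) in the 3 mutants, with genes down the y axis, open points where the adjusted p was not under 0.05 and a dashed line at the median change of 17 neuron markers for each mutant. In egg mutants sNPF, Capa, Mip, AstC and Crz lay farthest right of that mutant's line at 0.83. Ilp2, NPF, Dh31, Ms, Nplp1 and Dh44 also lay right of it. Ilp5 and SIFa lay left of it in egg mutants and right of the corresponding line in the other mutants.

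Both measured insulin-like peptide genes rose in each mutant, but in different order. Ilp2 and Ilp5 are expressed in the same median neurosecretory cells of the brain and encode ligands of the insulin receptor. Ilp2 was at 9.67, 9.45 and 9.67 in double mutants, 9.87, 9.77 and 9.82 in egg mutants and 9.61, 9.64 and 9.54 in Su(var)3-9 mutants, against 8.72, 9.06 and 8.70 in controls. It was thus highest in egg mutants and overlapped between the double and Su(var)3-9 mutants, with changes against the control of 1.0 ± 0.10 in egg mutants, 0.77 ± 0.10 in Su(var)3-9 mutants and 0.78 ± 0.10 in double mutants.

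Ilp5 was at 9.31, 9.23 and 9.19 in double mutants, 8.41, 8.4 and 8.45 in egg mutants and 9.48, 9.41 and 9.27 in Su(var)3-9 mutants, against 7.68, 8.37 and 7.82 in controls. Every array with the Su(var)3-9 mutation lay above every array without it, and the egg mutant lay just above control replicate 2. Ilp5 rose by 1.43 ± 0.14 in Su(var)3-9 mutants (adjusted p = 2.84e-06), 1.28 ± 0.14 in double mutants (adjusted p = 7.71e-06) and 0.46 ± 0.14 in egg mutants (adjusted p = 0.0147). The call in egg mutants was lost without control replicate 1 (0.32, adjusted p = 0.0706) or control replicate 3 (0.40, adjusted p = 0.0616), and under cyclic loess (0.13, adjusted p = 0.455).

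SIFa, a peptide of a few brain neurons that is known for its role in courtship and sleep, had the same order of genotypes as Ilp5. Its levels were 9.12, 9.02 and 9.04 in double mutants, 8.52, 8.27 and 8.56 in egg mutants and 9.27, 9.15 and 9.00 in Su(var)3-9 mutants, against 7.83, 8.18 and 7.88 in controls. No egg mutant array overlapped with another group. SIFa rose by 1.18 ± 0.11 in Su(var)3-9 mutants (adjusted p = 1.66e-06), 1.10 ± 0.11 in double mutants (adjusted p = 3.22e-06) and 0.49 ± 0.11 in egg mutants (adjusted p = 0.00217), the last not under cyclic loess (0.16, adjusted p = 0.235).

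**Figure D4:**
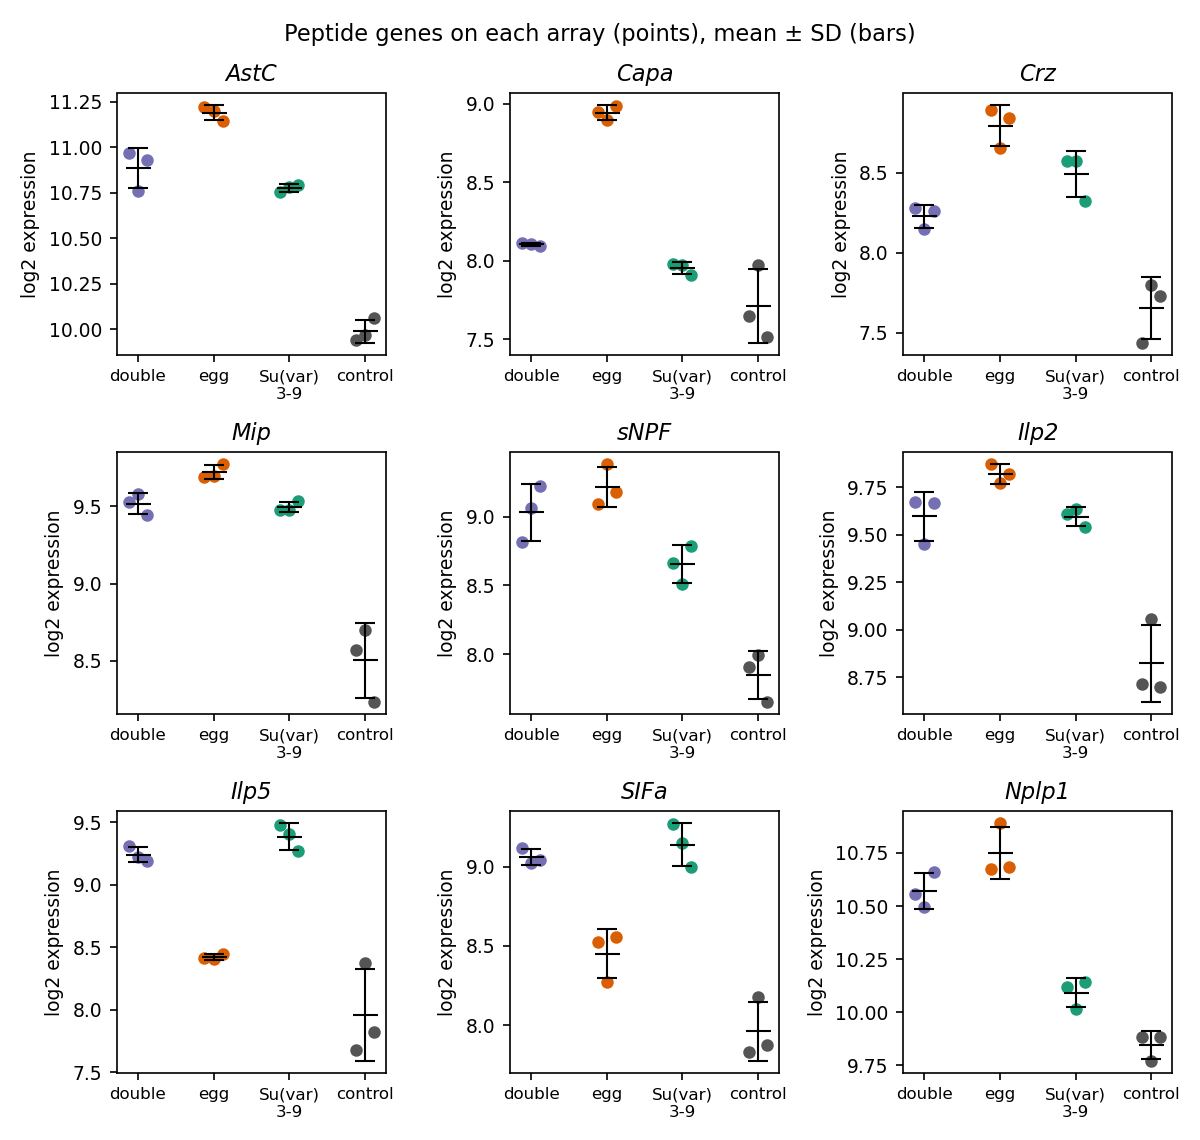
Log2 expression (y axis) of 9 peptide genes on each array (points) in the 4 genotypes along the x axis, with bars for the mean ± SD of 3 arrays. Ilp5 and SIFa were above 9.0 or close to it in the double and Su(var)3-9 mutants and below 8.6 in egg mutants and the control, Capa stood highest in egg mutants, and Nplp1 was higher in the double and egg mutants than in Su(var)3-9 mutants and the control.

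Of the 4 hormones of metabolism and moulting, 1 fell in every mutant and none rose. In the egg, Su(var)3-9 and double mutants 26%, 23.8% and 23.8% of all genes fell and 36.4%, 43.3% and 42.2% rose. Akh encodes adipokinetic hormone, which mobilises stored fat and sugar. It read 5.0, 5.28 and 4.77 in double mutants, 5.33, 5.15 and 5.27 in egg mutants and 5.03, 5.12 and 5.74 in Su(var)3-9 mutants, against 6.10, 5.90 and 5.99 in controls. All mutant arrays lay below all control arrays. Akh fell by 0.98 ± 0.17 in double mutants (adjusted p = 0.000357), 0.75 ± 0.17 in egg mutants (adjusted p = 0.00252) and 0.70 ± 0.17 in Su(var)3-9 mutants (adjusted p = 0.00374). With arrays centred on their medians the call in Su(var)3-9 mutants was lost (-0.33, adjusted p = 0.0582). Of 21 testis markers, 18 fell in double mutants, 19 fell and 1 rose in egg mutants, and 19 fell in Su(var)3-9 mutants, and the part of gut and testis transcripts in the change of Akh was not tested. The ecdysis genes ETH and CCAP and the bursicon gene Burs passed in no comparison on the deposited scale with all 12 arrays. Their log2 changes against the control were -0.16 to 0.26. All 3 were higher with arrays centred on their medians in Su(var)3-9 mutants (0.44 to 0.61) and double mutants (0.37 to 0.62). There the median change of all probe sets was 0.58 in Su(var)3-9 mutants and 0.54 in double mutants. Between double and egg mutants CCAP differed by 0.43 ± 0.16 (adjusted p = 0.0897). That difference passed without egg replicate 3 (0.56, adjusted p = 0.0439). It also passed with arrays centred on their medians (0.555, adjusted p = 0.0226), where the median change of all probe sets was 0.16.

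AstCC, ETH, CCAP and Burs were the 4 members whose mean level lay below the 40th percentile of all probe sets, the dimmest of the group. AstCC, a paralog of AstC, fell in egg mutants (-0.27 ± 0.09, adjusted p = 0.0255). That call was lost without egg replicate 1 (-0.23, adjusted p = 0.0901) or 3 (-0.26, adjusted p = 0.0651), and without control replicate 1 (-0.27, adjusted p = 0.0563) or 2 (-0.25, adjusted p = 0.0598). It was also lost with trend and robust eBayes (adjusted p = 0.0558) and with arrays centred on their medians, where the value was -0.039 (adjusted p = 0.740). In Su(var)3-9 mutants AstCC passed as higher without Su(var)3-9 replicate 3 (0.24, adjusted p = 0.0354). It did so with arrays centred on their medians in Su(var)3-9 mutants (0.52) and in double mutants (0.36). On that scale the median changes of all probe sets were 0.58 and 0.54. The leucokinin gene Lk, which acts on renal tubules and meal size, had values of 0.05, 0.27 and 0.27 in the egg, Su(var)3-9 and double mutants and passed in none. Without Su(var)3-9 replicate 3 it passed in Su(var)3-9 mutants (0.35, adjusted p = 0.0298), and with arrays centred on their medians in both Su(var)3-9 mutants (0.64) and double mutants (0.62). In double mutants Lk also passed, at 0.27, with only the groups compared in the fit (adjusted p = 0.0341). It did so without Su(var)3-9 replicate 2 as well (adjusted p = 0.0227).

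The 4 neuropeptide-like precursor genes did not move together. Nplp1 rose by 0.90 ± 0.08 in egg mutants and 0.72 ± 0.08 in double mutants but by 0.25 ± 0.08 in Su(var)3-9 mutants (adjusted p = 0.0206). The last call was lost under cyclic loess and without Su(var)3-9 replicate 1 (0.23, adjusted p = 0.0576) or 3 (0.22, adjusted p = 0.0652) or control replicate 2 (0.21, adjusted p = 0.0614). Nplp4 rose by 0.62, 0.95 and 0.75 in the egg, Su(var)3-9 and double mutants. Nplp3 fell in egg mutants, at 14.11, 14.16 and 14.09 against 14.44, 14.43 and 14.37 in controls (-0.29 ± 0.06, adjusted p = 0.00187). With arrays centred on their medians that value was -0.066 (adjusted p = 0.388), while Nplp3 was higher in Su(var)3-9 mutants (0.44) and double mutants (0.41). All probe sets had median changes of 0.32, 0.58 and 0.54 there in the egg, Su(var)3-9 and double mutants. Nplp2 rose by 0.26 ± 0.08 in double mutants (adjusted p = 0.0105) and 0.22 ± 0.08 in Su(var)3-9 mutants (adjusted p = 0.0249). The call in Su(var)3-9 mutants was lost without Su(var)3-9 replicate 3 (0.18, adjusted p = 0.0938), control replicate 1 (0.20, adjusted p = 0.0697) or control replicate 3 (0.17, adjusted p = 0.0874). The mean levels of Nplp2 and Nplp3 lay at percentiles 99.92 and 99.97 of all probe sets.

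Heads of double mutants were compared with those of egg mutants to ask what the Su(var)3-9 mutation added in flies with the egg allele. Of the 27 members 3 rose and 5 fell, where 9.61% of all genes rose and 10.1% fell. All double mutant arrays lay above all egg mutant arrays for 5 members and below them for 14, where 20.5% and 24.7% of all genes did so. The members higher in double mutants were Ilp5 (0.82 ± 0.14, adjusted p = 0.00186), SIFa (0.61 ± 0.11, adjusted p = 0.00240) and Nplp3 (0.35 ± 0.06, adjusted p = 0.00284). The members lower in it were Capa (-0.84 ± 0.10, adjusted p = 0.000133), Crz (-0.57 ± 0.11, adjusted p = 0.00373), Ms (-0.33 ± 0.09, adjusted p = 0.0323), AstC (-0.30 ± 0.07, adjusted p = 0.0135) and FMRFa (-0.26 ± 0.07, adjusted p = 0.0286). Ilp2, which shares its cells with Ilp5, differed by -0.22 ± 0.10 and did not pass (adjusted p = 0.168). The neuron markers had a median change of -0.22, with 2 of 17 lower, and the gut markers one of -1.69, with 13 of 20 lower. For photoreceptor markers it was -0.31, with 6 of 12 lower and 0 higher. The part of these tissues in this comparison was not tested.

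The calls for Ilp5, SIFa, Nplp3, Capa and Crz held without any 1 array. Leaving out 1 array at a time gave 2 to 6 members lower. AstC was lost without double mutant replicate 2 (-0.24, adjusted p = 0.0512) or egg replicate 1 (-0.29, adjusted p = 0.0575). Ms was lost without double mutant replicate 2 (-0.25, adjusted p = 0.111) or 3 (-0.33, adjusted p = 0.0774) or egg replicate 1 (-0.26, adjusted p = 0.138) or 3 (-0.31, adjusted p = 0.0998). FMRFa was lost when any array of either genotype was left out (-0.29 to -0.24). AstC (-0.18), Ms (-0.20) and FMRFa (-0.13) were all lost with arrays centred on their medians.

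Double mutants were compared with Su(var)3-9 mutants to ask what the egg allele added in flies with the Su(var)3-9 mutation. Here the gut medians overlapped, at 5.43 to 6.81 in double mutants and 5.08 to 7.75 in Su(var)3-9 mutants, with no gut or neuron marker past the threshold. Photoreceptor medians did not overlap, at 12.61 to 12.70 in double mutants and 12.42 to 12.56 in Su(var)3-9 mutants, and 1 of 12 genes rose. Nor did fat body medians, at 11.16 to 11.39 in double mutants and 11.68 to 11.94 in Su(var)3-9 mutants, where 1 of 12 genes rose and 3 fell. The part of these tissues in the comparison was not tested. Nplp1, which encodes a precursor of several brain peptides, was the 1 member that rose, and none fell, where 3.09% of all genes rose and 2.9% fell. Arrays of the genotypes did not overlap for 3 members higher and 3 lower in double mutants, where 14.5% and 12.6% of all genes did not. It read 10.55, 10.50 and 10.66 in double mutants, against 10.12, 10.01 and 10.14 in Su(var)3-9 mutants. The groups did not overlap, and the difference was 0.48 ± 0.08 (adjusted p = 0.00409).

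The other 26 members did not pass in this comparison, with values of -0.28 to 0.38. sNPF had the largest of them, 0.38 ± 0.13 (95% interval 0.10 to 0.65, adjusted p = 0.124), with all double mutant arrays above all Su(var)3-9 arrays. For Ilp2 the interval was -0.22 to 0.22, for Ilp5 -0.45 to 0.16, for Mip -0.20 to 0.24 and for Capa -0.06 to 0.37. Differences of these sizes could not be told from none with 3 arrays a group.

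The interaction of the mutations asks whether the difference between flies with and without the egg allele was the same with and without the Su(var)3-9 mutation. It was below 0 for 19 members and above 0 for 1, Nplp3, where 27.7% and 21.7% of all genes were called in those directions. A negative value means that the egg mutant exceeded the control by more than the double mutant exceeded the Su(var)3-9 mutant. The calls of CCHa2, Ilp5 and Nplp3 were each lost when single arrays were left out, CCHa2 at -0.52 to -0.34, Ilp5 at -0.60 to -0.47 and Nplp3 at 0.25 to 0.28 (adjusted p up to 0.114). CCHa2 was lost without any 1 control array, double mutant replicate 1 or 2, egg replicate 2 or 3, or Su(var)3-9 replicate 1 or 3. Ilp5 was lost without double mutant replicate 2 or 3, egg replicate 3, Su(var)3-9 replicate 1 or 2, or control replicate 1 or 3. Nplp3 was lost without double mutant replicate 2, egg replicate 1 or 3, or control replicate 1. CCHa2 was also lost with the replicate block, array weights and centring on brighter probe sets. With arrays centred on their medians Nplp3 was at 0.039 (adjusted p = 0.722). Under cyclic loess CCHa1, CCHa2, FMRFa, Ilp5, Nplp1 and SIFa no longer passed, at -0.30 to -0.11 (adjusted p of 0.0794 or more). Without Su(var)3-9 replicate 3, Akh passed as well (0.69, adjusted p = 0.0097). Interactions of at least 2-fold below 0 were found for 4 members, where 2.46% of all genes had them. They were those of Crz (-1.40 ± 0.15, adjusted p = 2.21e-05), Mip (-1.20 ± 0.15, adjusted p = 4.36e-05), AstC (-1.09 ± 0.10, adjusted p = 8.08e-06) and Capa (-1.08 ± 0.14, adjusted p = 7.39e-05). All 17 neuron markers also had a negative interaction, with a median of -0.78, and 18 of the 21 testis markers a positive one, and the control arrays that stood apart enter each of these values.

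Because neuron markers moved with the peptide genes, the members' changes were also taken relative to them, by centring each array on the median of the 17 markers before the same fit, an alternative chosen after the data were seen. The egg mutant then had 5 members higher than the control and 11 lower, where 1.48% of all genes were higher and 82.8% lower. The 5 were sNPF (0.54 ± 0.13), Capa (0.41 ± 0.10), Mip (0.40 ± 0.11), AstC (0.38 ± 0.13) and Crz (0.32 ± 0.13). In the Su(var)3-9 mutant 4 members were higher on this scale, Ilp5 (0.89 ± 0.13), SIFa (0.64 ± 0.11), Mip (0.46 ± 0.11) and Nplp4 (0.41 ± 0.14), and 8 were lower, where 4.56% and 53.2% of all genes were. In the double mutant 4 were higher, Ilp5 (0.70 ± 0.13), sNPF (0.60 ± 0.13), SIFa (0.52 ± 0.11) and Mip (0.43 ± 0.11), and 7 were lower, where 3.76% and 60.3% of all genes were.

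Relative to the neuron markers, Ilp5 and SIFa thus lay below the control in egg mutants (-0.36 ± 0.13 and -0.33 ± 0.11) and above it in both genotypes with the Su(var)3-9 mutation. Of the members that had risen on the deposited scale, 11 of 19 in egg mutants, 13 of 18 in Su(var)3-9 mutants and 14 of 19 in double mutants no longer differed past the threshold. Of the risen members 3, 1 and 1 were called lower on this scale. The sign of the change turned for 10, 13 and 15 of the 27 members, counting members called on neither scale as well. Turned signs were not counted over all genes. Between the double and egg mutants 8 members were higher and 1 lower, where 24.1% and 4.28% of all genes were, and Ilp5 (1.06 ± 0.13) and SIFa (0.85 ± 0.11) were among those higher and Capa (-0.60 ± 0.10) was the one lower. Between the double and Su(var)3-9 mutants no member passed, Nplp1 included, where 0.885% of all genes were higher and 1.59% lower. The interaction was above 0 for 9 members and below 0 for Crz and Mip, where 69.9% and 1.12% of all genes were called.

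The genes that process, carry and receive the peptides were then examined in lists chosen by role. Of 24 measured peptide receptor genes, 15 rose and none fell in egg mutants, 15 rose and 1 fell in Su(var)3-9 mutants, and 20 rose and none fell in double mutants. Of all genes 36.4%, 43.3% and 42.2% rose and 26%, 23.8% and 23.8% fell. The receptor list medians were 0.37, 0.44 and 0.47. AkhR, the receptor of adipokinetic hormone, was at 8.78, 8.80 and 8.90 in double mutants, 9.02, 9.22 and 9.03 in egg mutants and 8.80, 8.55 and 8.89 in Su(var)3-9 mutants, against 7.80, 7.73 and 7.96 in controls. AkhR was higher on every mutant array, where its ligand gene Akh was lower, and rose by 1.26 ± 0.10 in egg mutants (adjusted p = 6.87e-07), 0.91 ± 0.10 in Su(var)3-9 mutants and 1.0 ± 0.10 in double mutants. The receptor gene sNPF-R rose by 1.03 ± 0.12 in egg mutants, as did its ligand gene, and the leucokinin receptor gene Lkr by 1.19 ± 0.12 in Su(var)3-9 mutants and 1.09 ± 0.12 in double mutants.

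SPR, the receptor of sex peptide and of the Mip peptides, had the largest change among the receptor genes. Its levels were 8.84, 8.95 and 9.04 in double mutants, 9.87, 10.02 and 9.76 in egg mutants and 7.98, 7.72 and 7.97 in Su(var)3-9 mutants, against 8.25, 8.35 and 7.99 in controls. Both genotypes with the egg allele stood above the control on every array, and the Su(var)3-9 mutant lay below it. SPR rose by 1.69 ± 0.11 in egg mutants (adjusted p = 2.27e-07) and by 0.75 ± 0.11 in double mutants and fell by 0.30 ± 0.11 in Su(var)3-9 mutants. The fall in Su(var)3-9 mutants (adjusted p = 0.0321) was lost with the replicate block (adjusted p = 0.0505), with only the groups compared in the fit, with array weights (-0.25), with the mean of the gene's probe sets (-0.071), and without Su(var)3-9 replicate 2 (-0.22), control replicate 1 (-0.28) or control replicate 2 (-0.23). The value was 0.067 with arrays centred on their medians. The double mutant exceeded the Su(var)3-9 mutant by 1.05 ± 0.11 (adjusted p = 9.37e-05) and was 0.94 ± 0.11 below the egg mutant.

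Of 7 measured genes of peptide processing, 6 rose in each mutant and none fell, beside the same 36.4%, 43.3% and 42.2% of all genes. The proprotein convertase gene amon, which makes the main cut in neuropeptide precursors, rose by 1.03 ± 0.12 in egg mutants (adjusted p = 1.14e-05), 0.63 ± 0.12 in Su(var)3-9 mutants and 0.86 ± 0.12 in double mutants. The list medians were 0.69 in egg mutants, 0.36 in Su(var)3-9 mutants and 0.38 in double mutants. Of 7 genes of dense-core vesicles 6 rose in each mutant, again beside 36.4%, 43.3% and 42.2% of all genes, with medians of 0.68, 0.48 and 0.66, and none changed by 2-fold or more. The gene that did not pass in any mutant was dimm, a transcription factor of peptidergic cells, at 0.00, 0.12 and -0.01. Its levels of 3.50 to 3.89 lay below the mean level of every member, and a level above background was not shown.

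**Figure D5:**
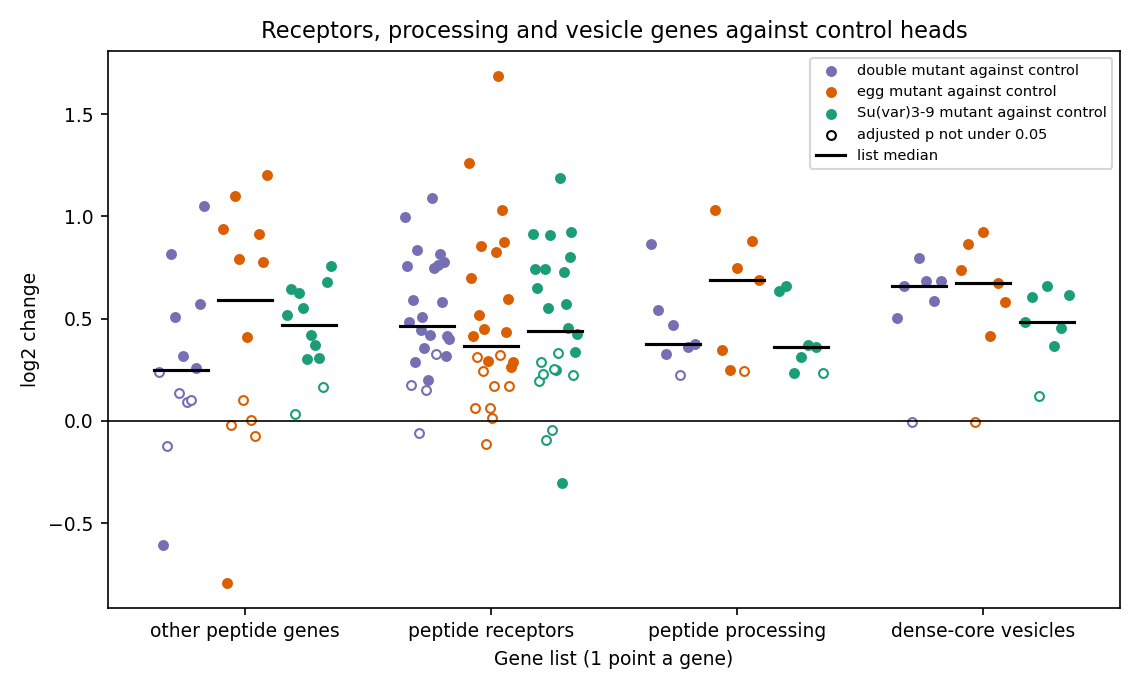
Log2 change against the control (y axis) of single genes (points, open where the adjusted p was not under 0.05) in 4 lists along the x axis, for the double, egg and Su(var)3-9 mutants, with a black bar at each list's median. All list medians were above 0, the highest receptor point was SPR in egg mutants at 1.69, and the lowest point was Eh in egg mutants at -0.79.

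Of 12 further peptide genes, 7 rose and 1 fell in egg mutants, 10 rose and none fell in Su(var)3-9 mutants, and 6 rose and 1 fell in double mutants. Of all genes 36.4%, 43.3% and 42.2% rose and 26%, 23.8% and 23.8% fell. The peptide gene that fell was Eh, eclosion hormone, which triggers emergence of the adult. It read 6.19, 5.88 and 5.91 in double mutants, 5.69, 5.92 and 5.81 in egg mutants and 7.44, 7.32 and 6.97 in Su(var)3-9 mutants, against 6.41, 6.70 and 6.68 in controls. Genotypes with the egg allele were below the control on every array, and the Su(var)3-9 mutant was above it. The changes were -0.79 ± 0.13 in egg mutants, 0.64 ± 0.13 in Su(var)3-9 mutants and -0.61 ± 0.13 in double mutants, and the double mutant was 1.25 ± 0.13 below the Su(var)3-9 mutant on the log2 scale (adjusted p = 8.85e-05).

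The clock neuron peptide gene Pdf had an interaction of -1.21 ± 0.15 (adjusted p = 4.71e-05), with changes of 0.94 in egg mutants, 0.52 in Su(var)3-9 mutants and 0.24 in double mutants, the last not past the threshold. Its levels were 9.20, 8.89 and 9.13 in double mutants, 9.81, 9.73 and 9.77 in egg mutants and 9.33, 9.52 and 9.20 in Su(var)3-9 mutants, against 8.77, 8.98 and 8.75 in controls. The peptide gene spab rose by 1.20 ± 0.09 in egg mutants and 1.05 ± 0.09 in double mutants, and Gpb5, a glycoprotein hormone subunit, by 1.10 ± 0.13 in egg mutants.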

How the data were processed

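RNA of adult heads, extracted with Trizol from flies kept at 25 °C and 70% humidity per the labels' protocols, was measured on Affymetrix arrays. The table holds the authors' log2 expression values. The submitters' processing notes list RMA, which scales all arrays to one distribution, and limma, and versions are not given in the sources used here. Such values are relative, so a change in total RNA per head would not be seen. Of 13 arrays 12 were used, since the technical repeat of control replicate 1 came as an empty column. The number of arrays limits the precision.

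After removal of 183 Affymetrix control features from 18952 probe sets, 18769 were tested. By the platform annotation 13646 had a single symbol, 402 had several and 4721 had none. Each gene was represented by its brightest probe set. Group means were fitted with limma 3.58.1 in R 4.3.3 over all 12 arrays (8 residual and 4.162 prior degrees of freedom). Tests were two-sided, with Benjamini-Hochberg adjustment over all probe sets, and intervals are at 95%. Summaries used Python 3.11.15. In simulated data for the egg comparison, 200 of 18769 probe sets were changed. There 94% of changes of 1 and 99% of changes of 2 on the log2 scale were recovered, with 12 false calls. In the real egg comparison 36.4% of all genes rose and 26% fell, and most member changes were below 1. The simulated rates therefore do not carry over to the calls made here.

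All members were accounted for, and array values were given for members past the threshold and changed by at least 2-fold in a comparison. Of other peptide pathway lists, genes meeting the same limits were named. Array values of Akh, Ilp2, Nplp1 and Nplp3 and the remarks on dimm were chosen after the values were seen. The members, lists and tests were chosen with earlier results of these data known. Replicate numbers were not taken to pair arrays, since deviations of same-numbered arrays correlated at -0.36 to 0.10. Alternatives were a replicate block, other limma settings, other scalings, a filter on dim probe sets, a 2-fold minimum and omission of single arrays.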

Additional observations from a re-analysis of the deposited data

Results flagged for a closer look

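The difference between the egg mutant and the control differed from that between the double mutant and the Su(var)3-9 mutant for 20 members, by the interaction term of the limma fit at an adjusted p under 0.05. Of all named genes, 27.7% were called below 0 and 21.7% above 0 by the same rule. In log2 units the term was -1.40 for Crz, -1.20 for Mip, -1.09 for AstC, -1.08 for Capa, -1.0 for Ilp2, -0.99 for sNPF, -0.97 for NPF and -0.94 for Proc. It was -0.87 for Ms, -0.84 for both Dh31 and Dh44, -0.82 for Nplp4, -0.74 for ITP, -0.61 for Ilp5, -0.57 for SIFa, -0.49 for CCHa1, -0.47 for CCHa2, -0.43 for FMRFa and -0.42 for Nplp1, and 0.28 for Nplp3. Among genes of the pathway it was -1.21 for Pdf, -1.18 for AkhR, -0.92 for Lkr, -0.91 for both Gpb5 and spab, -0.84 for sNPF-R, -0.80 for amon and -0.64 for SPR. The control arrays enter every one of these values, and their higher gut, testis and muscle markers had interactions of the opposite sign (median 2.49 for 20 gut genes, 3.15 for 21 testis genes and 1.06 for 11 muscle genes). The part of these tissues in the interaction was not tested. Relative to the neuron markers, Crz (-0.62) and Mip (-0.42) were the members that kept a negative interaction past the threshold. With cyclic loess the interactions of CCHa1, CCHa2, FMRFa, Ilp5, Nplp1 and SIFa did not pass (-0.30 to -0.11).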

How the results depend on the processing

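The number of arrays, 3 a group, limits what could be called. Shares of all genes called were taken only for some counts at the 2-fold minimum and for the centring on neuron markers. Under the other alternatives below, whether member counts moved with those of all genes was not tested. The replicate block left 19 members higher in egg mutants, 161 member results kept their side of the threshold under it, and 1 did not, the CCHa2 interaction (-0.47, adjusted p = 0.0647). Replicate numbers did not pair the arrays. With a 2-fold minimum, 5, 2 and 4 members were higher and 0 lower in egg, Su(var)3-9 and double mutants against controls, 0 in either direction between double and egg mutants, 0 higher between double and Su(var)3-9 mutants, and the interaction was called above 0 for 0 and below 0 for 4. Array weights gave 9 members lower in double than in egg mutants. Centring on brighter probe sets gave 3, and so did leaving out the pair of arrays with the highest gut marker medians of the double and Su(var)3-9 mutants.

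Scaling set the sizes. The median change of all probe sets against controls was 0.09, 0.21 and 0.18 in egg, Su(var)3-9 and double mutants as deposited. With arrays centred on their medians, the members' medians were 0.87, 0.90 and 0.92, beside 0.32, 0.58 and 0.54 for all probe sets. Of the members 1 was lower in egg mutants and 0 in Su(var)3-9 mutants, and SPR was 0.067 in Su(var)3-9 mutants. Between double and egg mutants 6 were then higher and 2 lower with a median of -0.050 (0.16 for all probe sets). The interaction had 0 above 0 and a median of -0.85 (-0.38 for all probe sets). Cyclic loess gave medians of 0.36, 0.27 and 0.29, 2 lower in double mutants, an interaction median of -0.30 and FMRFa at -0.22 in double mutants. Centred on neuron markers, an alternative chosen after the data were seen, 5 were higher and 11 lower in egg mutants (median -0.18), 4 and 8 in Su(var)3-9 mutants (median -0.014), 4 and 7 in double mutants (median -0.020), 8 and 1 between double and egg mutants (median 0.060), 0 higher between double and Su(var)3-9 mutants, and 9 and 2 for the interaction (median 0.17). Without probe sets below the 40th percentile the interaction median was -0.82. The causes were not tested.

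Leaving out 1 array at a time gave 18 to 19 members higher and 2 to 3 lower in egg mutants (median 0.62 to 0.70), 17 to 19 and 1 in Su(var)3-9 mutants (0.46 to 0.61), 19 to 20 and 1 in double mutants (0.49 to 0.62). It gave 3 to 4 higher and 2 to 6 lower between double and egg mutants (-0.19 to -0.11), and 1 higher and 0 lower between double and Su(var)3-9 mutants (-0.04 to 0.01). The interaction was above 0 for 0 to 2 and below 0 for 17 to 19 (-0.82 to -0.52). The technical repeat of control replicate 1 was empty, so the alternatives that use it were not run, and the interaction needs all groups, so no fit of fewer groups was made for it.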
